A study of Mus musculus with 12 samples.

Results

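The genes of 6 cytosolic nucleic acid sensing proteins were followed across 4 chromatin marks and 3 cell states of KPC1199, a cultured murine pancreatic ductal adenocarcinoma line from C57BL/6 mice. They are Zbp1, Ifih1, Ddx58, Dhx58, Cgas and Sting1, which carry the symbols ZBP1, IFIH1, DDX58, DHX58, MB21D1 and TMEM173 in human genes or older annotation. Members were taken by gene name, and all 6 were found, each with 1 window, among 25507 gene windows. CUT&Tag, in which a transposase tethered by an antibody tags the DNA beside a mark, was used for H3K4me3, a mark of active promoters, H3K27Ac, a mark of active promoters and enhancers, H3K27me3, the Polycomb mark of PRC2, and ubiquitinated H2A, the mark of PRC1 that the labels call H2A119Ub. Each mark was read in PD-L1 high cells given 10 ng/ml IFN-gamma, in all cells given 10 ng/ml IFN-gamma, and in all cells without IFN-gamma, called untreated here. PD-L1 is the checkpoint ligand that IFN-gamma induces. All groups are the same line, while the duration of treatment and the way PD-L1 high cells were obtained are not stated in the labels. There is 1 library per mark and state, so the comparisons are between single libraries, without a replicate check or a p-value.

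The sensors recognise nucleic acid where it should not be. MDA5 (encoded by Ifih1) binds long double-stranded RNA, and RIG-I (Ddx58) binds RNA with a triphosphate end. Both signal through the mitochondrial adaptor MAVS, and LGP2 (Dhx58) is the helicase of the same family that lacks the signalling domain and tunes the other two. cGAS (Cgas) makes the messenger cGAMP when it meets DNA, and STING (Sting1) is the receptor of cGAMP. ZBP1 binds Z-form nucleic acid and engages the kinase RIPK3, which can lead to necroptosis. Many of these genes are known to be induced by interferon in other cells, through factors that bind the interferon-stimulated response element (ISRE) or the gamma-activated site (GAS).

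Levels are given as normalised tags per window of 6000 bp, a reading of the deposited signal that was inferred from its steps. Windows appear to lie around gene starts, since 565 pairs of genes with head-to-head starts within 1000 bp differed by a median of 1.001-fold in H3K4me3. One tag was worth 0.989 to 1.03 units in 11 libraries, and 1.32 in that of H2A119Ub from all IFN-gamma treated cells, which would be a depth of 9.72 to 10.1 M tags and of 7.59 M tags (M, 10 to the power of 6) had each library been scaled to 10 M. Intervals at 95% come from the recovered tags and cover counting error only. No molecular identifiers are named for these reads, which may repeat a molecule, so the true error may be larger. Of 10 ductal epithelial markers, 9 averaged at least 57.6 tags of H3K4me3 over the 3 states, the mean of the median window, with Cldn4 as the exception. Their summed level was 7779 tags in PD-L1 high, 7830 in all IFN-gamma treated and 6348 in untreated cells, most of it from Krt8, Krt18, Krt19 and Sox9. Cldn7 was lower, with 92.9 tags in all IFN-gamma treated and 199 in untreated cells, as were Krt7, with 123 and 193, and Epcam, with 59.6 and 75.7. Windows with little H3K4me3 tended lower there in general. Those averaging 57.6 to 135 tags had quartiles of -0.75 and -0.19 in log2 ratio, relative to the typical window. On this scale Epcam, at -0.57, lay inside the quartiles and Cldn7, at -1.31, below them. Krt7 averaged 158 tags. Its ratio of -0.87 lay below the quartiles of windows averaging 135 to 240 tags, which were -0.40 and 0.001. Of 8 leukocyte markers, Cd68 alone reached the mean of 57.6 tags. Ptprc, which defines leukocytes, was at 0.99 tags in PD-L1 high, 0 in all IFN-gamma treated and 4.98 in untreated cells, and Cd74, which also serves MHC class II in other cells, was at 56.4, 52.6 and 23.9. Of 8 fibroblast and endothelial markers, Col1a1, Pdgfra and Pdgfrb reached it and Col1a2 was at 0 in all 3 states. The part of other cells in the values below was not tested. Cd274, the gene of PD-L1, had 786 tags of H3K4me3 in PD-L1 high, 649.6 in all IFN-gamma treated and 229 in untreated cells.

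Zbp1 and Dhx58 had no promoter sequence at hand, and Sting1 was left out of this step, so its promoter was not searched. The promoter sequences of the other 3 members are shown because the windows read marks around these starts. They come from RefSeq (GRCm38.p6, the assembly known as mm10), run from 250 bases before to 50 after the start, and are printed from 5′ to 3′ on the strand of the gene, which is the minus strand in each. The motifs searched on both strands were the ISRE, written as GAAA, any 2 bases and GAAA, and the GAS, TTCNNNGAA, and capitals mark a match. The Ifih1 promoter is chr2:62646206-62646505, that of Ddx58 is chr4:40239776-40240075 and that of Cgas is chr9:78443188-78443487.
Ifih1: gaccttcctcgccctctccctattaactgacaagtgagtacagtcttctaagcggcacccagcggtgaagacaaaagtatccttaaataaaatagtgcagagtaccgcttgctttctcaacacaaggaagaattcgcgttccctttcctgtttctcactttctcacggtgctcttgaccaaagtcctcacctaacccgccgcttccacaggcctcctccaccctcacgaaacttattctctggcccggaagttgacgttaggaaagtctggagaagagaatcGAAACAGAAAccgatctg
Ddx58: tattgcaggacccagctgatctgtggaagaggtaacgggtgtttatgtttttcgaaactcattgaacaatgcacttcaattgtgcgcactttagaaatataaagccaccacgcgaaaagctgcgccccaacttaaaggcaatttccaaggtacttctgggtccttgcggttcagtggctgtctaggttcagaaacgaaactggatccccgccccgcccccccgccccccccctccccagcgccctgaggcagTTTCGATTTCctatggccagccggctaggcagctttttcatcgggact
Cgas: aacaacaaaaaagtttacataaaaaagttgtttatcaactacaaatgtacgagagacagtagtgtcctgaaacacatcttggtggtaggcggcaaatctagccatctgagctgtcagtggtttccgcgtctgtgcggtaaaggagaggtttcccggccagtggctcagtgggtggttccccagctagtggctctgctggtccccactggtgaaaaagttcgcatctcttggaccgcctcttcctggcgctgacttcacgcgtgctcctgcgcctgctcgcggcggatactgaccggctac
Ifih1 held the ISRE letters GAAACAGAAA on its own strand, 32 to 41 bases after the start (the first base of the gene counted as 0). Ddx58 held them on the other strand, read here as TTTCGATTTC, 2 to 11 bases after the start. The Cgas promoter held neither motif, and none of the 3 held the GAS letters. Of 32851 RefSeq promoters of 300 bases, 3.44% held the ISRE letters and 8.30% the GAS letters. A match describes the letters in this window and shows no binding.

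In untreated cells the sensor genes stood in unlike chromatin. Dhx58 had the most H3K4me3 of the group, at 251 tags, followed by Ddx58 at 198, Sting1 at 137 and Ifih1 at 134, while Zbp1 had 30.9 and Cgas 24.9. The counting intervals of Dhx58 (221 to 284) and Ddx58 (172 to 228) overlapped, as did those of Sting1 (115 to 162) and Ifih1 (113 to 159), and those of Zbp1 (20.97 to 43.8) and Cgas (16.1 to 36.7). Against all windows, the H3K4me3 of Dhx58 was at percentile 61.7 and that of Cgas at percentile 40.6. H3K27Ac was highest at Dhx58, with 211 tags, and was 83.2 at Zbp1, 73.05 at Sting1, 37.5 at Ddx58 and 26.4 at both Ifih1 and Cgas. The Polycomb marks separated Cgas and Dhx58 from the rest. Cgas had 313 tags of H3K27me3 (percentile 94.9 of all windows), and the other 5 had between 7.11 and 29.5. Dhx58 had 247 tags of H2A119Ub (percentile 99.3), next to 94.7 at Zbp1, 67.4 at Cgas and 18.5 to 36.02 at the other 3.

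**Figure D1:**
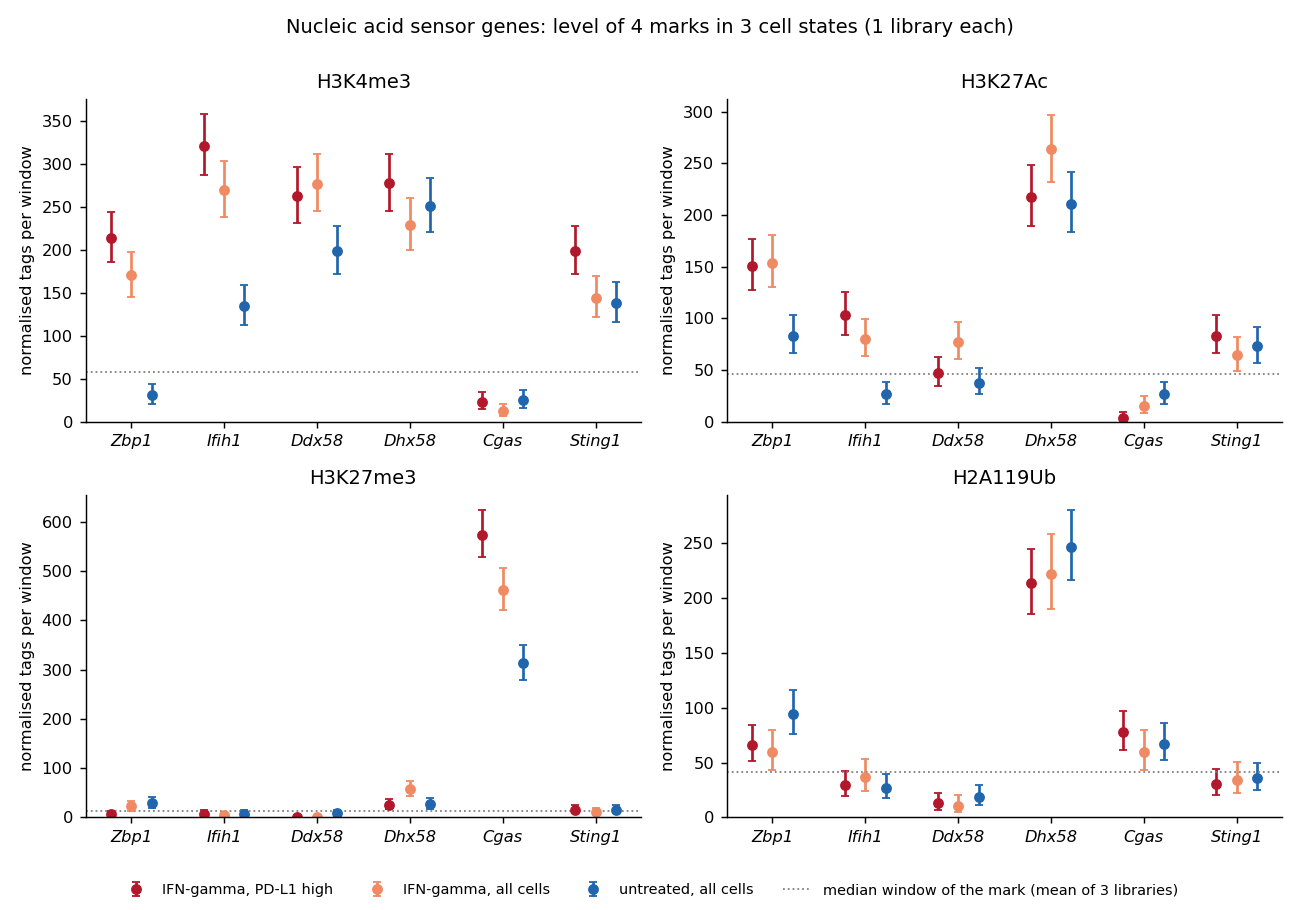
Level of each mark at the 6 sensor genes, in normalised tags per window, with 1 library per point and exact Poisson 95% intervals that cover counting error only; the dotted line is the median window of the mark. Zbp1 and Ifih1 have more H3K4me3 in both IFN-gamma libraries than in the untreated one, Cgas carries 313 to 574 tags of H3K27me3, and Dhx58 carries 214 to 247 tags of H2A119Ub.

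Ratios between states are log2 ratios of tags plus a pseudocount, set to 0 at the median kept window, so they are relative to the typical window. Before centring, that median for all IFN-gamma treated over untreated cells was 0.23 (H3K4me3), 0.24 (H3K27Ac), 0.22 (H3K27me3) and 0.24 (H2A119Ub). Windows whose mean over the 3 libraries reached that of the median window were kept, and a kept window at least 2-fold higher or lower counts as a call. Of the 6 members, Cgas was not kept for H3K4me3 or H3K27Ac, which leaves 5 in each, 4 were kept for H3K27me3 (Zbp1, Dhx58, Cgas and Sting1) and 3 for H2A119Ub (Zbp1, Dhx58 and Cgas). A member can pass this filter through 1 high library. The 3 comparisons share libraries, so their ratios are not independent of each other.

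After IFN-gamma, H3K4me3 was higher at Zbp1 and Ifih1. Zbp1 (chromosome 2, 173206612 to 173218959) had 213 tags in PD-L1 high cells, 170.3 in all IFN-gamma treated cells and 30.9 in untreated cells. The untreated library lay far below the other two, whose intervals (186 to 244 in PD-L1 high and 145 to 197 in all IFN-gamma treated cells) overlapped. A window is an average over the cells of a library, so fewer marked cells and less of the mark per cell cannot be told apart. Its log2 ratio was 2.16 (95% interval 1.67 to 2.83) in all IFN-gamma treated over untreated cells and 2.40 (1.93 to 3.07) in PD-L1 high cells over untreated cells, in each case the rank of 17 from the top among 12754 kept windows. Ifih1 (chromosome 2, 62595618 to 62646255) had 321, 269 and 134 tags in PD-L1 high, all IFN-gamma treated and untreated cells. Its ratios over untreated cells were 0.93 (0.65 to 1.24) in PD-L1 high and 0.76 (0.47 to 1.08) in all IFN-gamma treated cells. Both were short of 2-fold on this scale, at ranks 63 and 70.

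The other RNA sensor genes and Sting1 had H3K4me3 ratios nearer to 0. Ddx58 (chromosome 4, 40203777 to 40239825) had 263 tags of H3K4me3 in PD-L1 high, 277 in all IFN-gamma treated and 198 in untreated cells. Its ratio of all IFN-gamma treated over untreated cells was 0.24 (-0.02 to 0.52), an interval that includes 0. Dhx58 (chromosome 11, 100694884 to 100704271) had 278, 229 and 251 tags in the same order of states, a ratio of -0.36 (-0.63 to -0.10) in all IFN-gamma treated over untreated cells. Windows of like level also tended below 0 there: the bin of kept windows that holds Ifih1, Ddx58 and Dhx58 (10 equal bins by level of the mark) had a median of -0.09, with quartiles of -0.24 and 0.07. Sting1 (chromosome 18, 35733678 to 35740554) had 198 tags in PD-L1 high, 144 in all IFN-gamma treated and 137 in untreated cells. Its ratio was -0.17 (-0.51 to 0.18) in all IFN-gamma treated over untreated cells, turning to 0.12 under quantile normalization, beside a median of -0.20 in its bin of windows. Cgas (chromosome 9, 78430518 to 78443237) had 22.8, 11.9 and 24.9 tags and was below the filter, so its ratio is not counted.

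For H3K4me3, 1 of 5 kept members (Zbp1) was at least 2-fold higher in all IFN-gamma treated over untreated cells, where 0.361% of kept windows were. In PD-L1 high over untreated cells it was again Zbp1, where 0.47% of kept windows were. No kept member was at least 2-fold lower in these comparisons, where 1.03% and 2.09% of windows were. The median ratio of the 5 kept members was 0.24 in all IFN-gamma treated over untreated cells, beside 0 for all kept windows by construction. Zbp1 was kept through its IFN-gamma libraries, as its 30.9 untreated tags lay below the filter of 57.6. Cgas, with 24.9 untreated tags, was not kept, and its ratio in the same comparison was -1.18. The counts and the median thus depend on the filter.

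**Figure D2:**
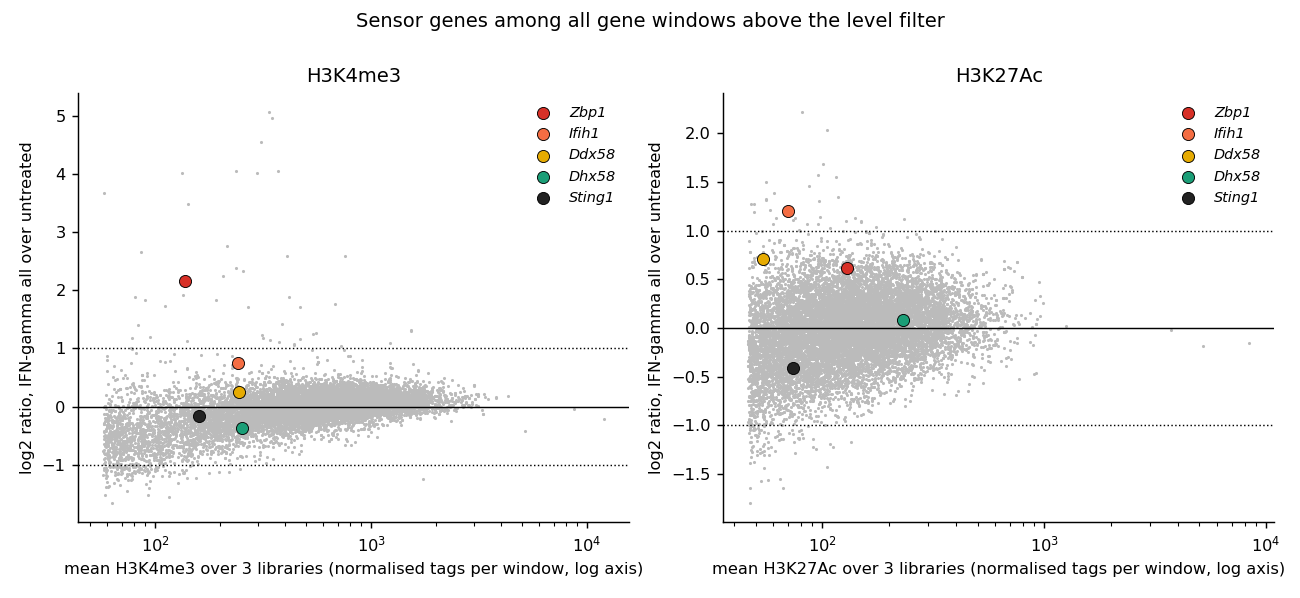
Log2 ratio of all IFN-gamma treated over untreated cells against mean level (log axis, normalised tags per window) for every gene window above the level filter, with kept sensor genes in colour and dotted lines at 2-fold. Zbp1 stands at 2.16 for H3K4me3 and Ifih1 at 1.20 for H3K27Ac, both past the line, and Cgas is absent because it is below both filters.

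H3K27Ac was more than 2-fold higher after IFN-gamma at Ifih1, and higher by less than 2-fold at Zbp1 and, in all IFN-gamma treated cells, at Ddx58. Ifih1 had 103 tags in PD-L1 high, 80.0 in all IFN-gamma treated and 26.4 in untreated cells. Its ratios over untreated cells were 1.58 (1.13 to 2.45) in PD-L1 high and 1.20 (0.71 to 2.06) in all IFN-gamma treated cells, ranks 11 and 16 of 12757 kept windows. Zbp1 had 150.3, 154 and 83.2 tags in PD-L1 high, all IFN-gamma treated and untreated cells. The intervals of the IFN-gamma libraries did not overlap that of the untreated one, and the ratio of all IFN-gamma treated over untreated cells was 0.61 (0.25 to 1.05). At Ddx58 the value of all IFN-gamma treated cells stood apart, with 46.6 tags in PD-L1 high, 77.0 in all IFN-gamma treated and 37.5 in untreated cells. The ratio was 0.71 (0.21 to 1.41) in all IFN-gamma treated over untreated cells and 0.08 (-0.55 to 0.77) in PD-L1 high cells over untreated cells.

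Dhx58 and Sting1 had H3K27Ac ratios whose intervals include 0. Dhx58 had 218 tags in PD-L1 high, 264 in all IFN-gamma treated and 211 in untreated cells, a ratio of 0.08 (-0.19 to 0.35) in all IFN-gamma treated over untreated cells. Sting1 had 83.02, 64.3 and 73.05 tags in the same order, a ratio of -0.41 (-0.95 to 0.07). Cgas had 3.54, 15.2 and 26.4 tags and was below the filter. Of 5 kept members, Ifih1 was the 1 at least 2-fold higher, in all IFN-gamma treated over untreated cells (0.251% of kept windows) and in PD-L1 high cells over untreated cells (0.392%). None of the kept members was 2-fold lower, where 0.643% and 1.77% of windows were. The median of the kept members in all IFN-gamma treated over untreated cells was 0.61. Ifih1 and Ddx58 were kept through their IFN-gamma libraries, as their 26.4 and 37.5 untreated tags lay below the filter of 46.3. Cgas, also at 26.4 untreated tags, was not kept, and its ratios in these 2 comparisons were -0.87 and -2.07. The counts and the median thus depend on the filter.

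Between PD-L1 high and all IFN-gamma treated cells, the active marks of kept members differed beyond counting error at Sting1 in H3K4me3 and at Ddx58 in H3K27Ac. Cgas, below the filter, had 3.54 and 15.2 tags of H3K27Ac in these states, a ratio of -1.19 (-4.71 to -0.45). No kept member passed 2-fold in H3K4me3, where 0.00784% of kept windows were higher and 0.0784% lower, or in H3K27Ac, where 0.0784% were higher and 0.196% lower, so that 0 calls among 5 genes is the background. The largest H3K4me3 ratio of a kept member was that of Sting1, with 198 tags in PD-L1 high and 144 in all IFN-gamma treated cells, a ratio of 0.38 (0.07 to 0.70) at rank 241. Zbp1 was at 0.25 (-0.04 to 0.56), Dhx58 at 0.20 (-0.05 to 0.46), Ifih1 at 0.18 (-0.06 to 0.42) and Ddx58 at -0.15 (-0.40 to 0.09), intervals that all include 0. In H3K27Ac, Ddx58 was lower, at -0.62 (-1.24 to -0.13), and Ifih1 and Sting1 had like ratios of 0.39 (-0.02 to 0.86) and 0.39 (-0.07 to 0.92). Dhx58 was at -0.23 (-0.50 to 0.04) and Zbp1 at 0.01 (-0.32 to 0.35).

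**Figure D3:**
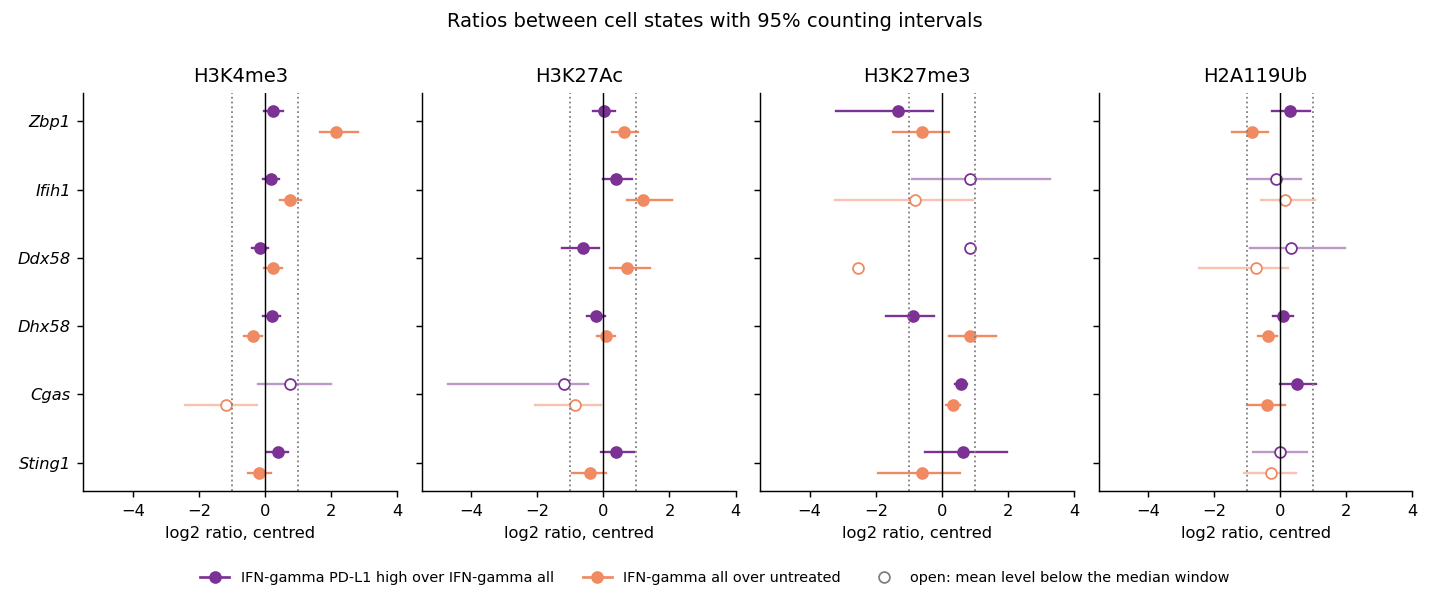
Centred log2 ratios of the 6 sensor genes for each mark, with PD-L1 high cells over all IFN-gamma treated cells above all IFN-gamma treated over untreated cells, lines as 95% counting intervals, dotted lines at 2-fold, and open points for genes below the level filter. Intervals of Ddx58 in H3K27me3 are not drawn because 1 library has 0 tags. The H3K4me3 ratio of Zbp1 after IFN-gamma, 2.16, is the value farthest from 0 among the kept ones.

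The H3K27me3 of Cgas and Zbp1 differed in opposite directions. Cgas had 574 tags in PD-L1 high cells, 461 in all IFN-gamma treated cells and 313 in untreated cells. Each interval lay clear of the next (528 to 623, 421 to 506 and 279 to 349.9). The ratio was 0.34 (0.13 to 0.56) in all IFN-gamma treated over untreated cells, 0.58 (0.39 to 0.76) in PD-L1 high cells over all IFN-gamma treated cells, and 0.999 (0.80 to 1.21) in PD-L1 high cells over untreated cells, just short of 2-fold. Under quantile normalization the last of these was 0.40. Windows rich in this mark shared much of that difference. The highest of 10 bins of kept windows by H3K27me3, which holds Cgas, had medians of 0.12 (quartiles 0.02 and 0.24), 0.52 (0.40 and 0.64) and 0.74 (0.60 and 0.88) in these comparisons. The Cgas ratio was inside the quartiles for PD-L1 high cells over all IFN-gamma treated cells and above them in the other comparisons.

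Zbp1 had 6.04 tags of H3K27me3 in PD-L1 high, 22.3 in all IFN-gamma treated and 29.5 in untreated cells. The intervals of PD-L1 high (2.21 to 13.1) and all IFN-gamma treated cells (13.97 to 33.7) stood apart by less than 1 tag, and that of all IFN-gamma treated cells overlapped that of untreated cells (19.7 to 42.3). Its ratio was -1.84 (-3.72 to -0.87) in PD-L1 high cells over untreated cells, -1.33 (-3.22 to -0.28) in PD-L1 high cells over all IFN-gamma treated cells and -0.59 (-1.49 to 0.23) in all IFN-gamma treated over untreated cells. Windows of like level were lower in the PD-L1 high library too, with medians of -0.41 over untreated and -0.51 over all IFN-gamma treated cells in the bin that holds Zbp1. Zbp1 lay beyond the lower quartiles there, -0.86 and -0.99, and had the rank of 142 from the bottom of 12757 windows in PD-L1 high cells over untreated cells. Relative to all IFN-gamma treated cells, its ratio was -0.86 under quantile normalization and no longer past 2-fold.

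At Dhx58, the H3K27me3 of all IFN-gamma treated cells stood above the other two states, with 25.1 tags in PD-L1 high, 58.2 in all IFN-gamma treated and 26.4 in untreated cells. The ratio was 0.86 (0.22 to 1.64) in all IFN-gamma treated over untreated cells and -0.89 (-1.68 to -0.24) in PD-L1 high cells over all IFN-gamma treated cells. Its neighbour Kat2a, a histone acetyltransferase gene, had 6.04, 44.6 and 24.4 tags in the same order of states. Their gene bodies lie 474 bp apart. The 2 windows differed in untreated H3K4me3, with 251 tags at Dhx58 and 488 at Kat2a. In general, the H3K27me3 ratio of all IFN-gamma treated over untreated cells moved with the H3K4me3 level. Medians were -0.29, -0.07, 0.13 and 0.33 in 4 equal bins of kept windows from the least to the most H3K4me3. Zbp1, Dhx58 and Sting1 lie in bin 3 and Cgas in bin 2. The part of this library trend in the value of Dhx58 was not tested.

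Sting1 had 15.1 tags of H3K27me3 in PD-L1 high, 11.1 in all IFN-gamma treated and 15.2 in untreated cells, with intervals that all overlapped. Ifih1 had 7.04, 4.05 and 7.11 tags, below the filter. Ddx58 had 1.01, 0 and 8.13 tags, also below it, and the 0 in all IFN-gamma treated cells allows up to 3 counts, or 3.04 tags. That is a set limit, and the exact Poisson interval of this 0 reaches 3.74 tags. Of 4 kept members, Zbp1 was the 1 at least 2-fold lower in PD-L1 high cells over all IFN-gamma treated cells (12.6% of kept windows) and in PD-L1 high cells over untreated cells (8.88%), shares large enough that 1 call is not a result about these genes. No kept member was 2-fold higher there (1.37% and 2.54% of windows), and none passed 2-fold in all IFN-gamma treated over untreated cells (3.79% higher and 4.51% lower).

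**Figure D4:**
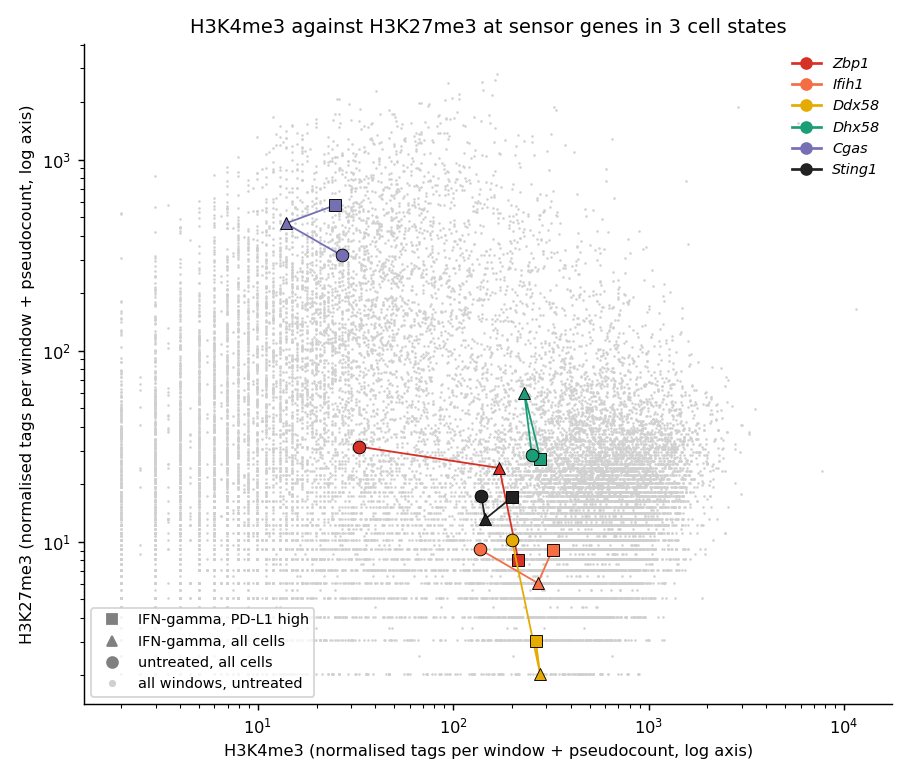
H3K4me3 (x) against H3K27me3 (y) at the sensor genes, in normalised tags per window plus the pseudocount on log axes, with 1 symbol per cell state joined by a line and every window of untreated cells in grey. Cgas stays in the corner of high H3K27me3 and low H3K4me3, and Zbp1 has 213 tags of H3K4me3 with 6.04 of H3K27me3 in PD-L1 high cells, against 30.9 with 29.5 in untreated cells.

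H2A119Ub was lower at Zbp1 after IFN-gamma, with 66.4 tags in PD-L1 high, 59.3 in all IFN-gamma treated and 94.7 in untreated cells. Counting intervals overlapped slightly (51.3 to 84.7, 43.3 to 79.4 and 76.3 to 116 in that order), and the library of all treated cells is the shallower one. The ratio was -0.55 (-1.08 to -0.12) in PD-L1 high cells over untreated cells and -0.85 (-1.46 to -0.38) in all IFN-gamma treated over untreated cells, where the bin of windows of like level had a median of 0.01. The H3K4me3, H3K27Ac, H3K27me3 and H2A119Ub ratios of Zbp1 after IFN-gamma were thus 2.16, 0.61, -0.59 and -0.85. Dhx58 stayed rich in this mark, with 214, 222 and 247 tags in PD-L1 high, all IFN-gamma treated and untreated cells, and had a ratio of -0.39 (-0.68 to -0.10) in all IFN-gamma treated over untreated cells. Cgas had 78.2, 59.3 and 67.4 tags in the same order, with overlapping intervals. Its ratios were -0.40 (-1.01 to 0.13) in all IFN-gamma treated over untreated and 0.50 (-0.02 to 1.09) in PD-L1 high cells over all IFN-gamma treated cells. Sting1 had 30.2 to 36.02 tags, Ifih1 26.8 to 36.9 and Ddx58 10.5 to 18.5, all below the filter. None of 3 kept members passed 2-fold: the shares of kept windows higher and lower were 0.408% and 0.894% in all IFN-gamma treated over untreated cells, 0.361% and 0.517% in PD-L1 high cells over all IFN-gamma treated cells, and 0.227% and 0.306% in PD-L1 high cells over untreated cells.

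The nearest genes with a window on either side were read next, with distances given between gene bodies, not between windows. Pmepa1, an inhibitor of TGF-beta signalling 5498 bp from Zbp1, had 1407, 1344 and 849 tags of H3K4me3 in PD-L1 high, all IFN-gamma treated and untreated cells. Its ratio of all IFN-gamma treated over untreated cells was 0.43 (0.31 to 0.56), below the 2.16 of Zbp1, and in H3K27Ac it was -0.20 (-0.44 to 0.06), against 0.61 at Zbp1. Gca, 18071 bp from Ifih1, had 44.5, 42.2 and 47.8 tags of H3K4me3 in the same order, and Fap, 20108 bp away on the other side, 0.99 to 2.99. At Dhx58, Kat2a had an H3K4me3 ratio of -0.41 (-0.60 to -0.23), close to the -0.36 of Dhx58. Zfp385c, 2417 bp from Dhx58 on the other side, carried 597, 561 and 539 tags of H3K27me3. Mto1, a tRNA modification gene on the opposite strand, has a RefSeq gene body that begins 241 bp from that of Cgas. The start that RefSeq's promoter uses lies 4973 bp from the start of Cgas. Over the 565 head-to-head pairs, the 90th percentile of the fold in H3K4me3 was 1.009. In untreated cells Mto1 had 275 tags and Cgas 24.9, so their windows do not appear to cover the same stretch. Mto1 had H3K4me3 at 316, 260.2 and 275 tags and H3K27me3 at 66.9, 75.5 and 34.03 in PD-L1 high, all IFN-gamma treated and untreated cells. Ddx43, on the other side of Cgas at 6928 bp, had 287, 228 and 215 tags of H3K27me3 in the same order.

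The windows most like each member were sought by the distance between log2 levels over the 12 libraries. Those nearest to Cgas were Dact1 and Cux2 (distances 1.28 and 1.31, where the median window is at 12.5), with 480.3 and 636 tags of H3K27me3 in PD-L1 high cells. For Sting1 they were Nek11 and Aste1, at 1.06 each, which have nearly equal values in every library. Dhx58 was nearest to Hoga1 and Castor1 (1.21 and 1.26), Ddx58 to Tm2d1 and Zfp65 (1.29 and 1.51), and Ifih1 to Fkbp9 and Mmgt1 (1.46 and 1.47). Zbp1 had no close match: Krtcap3 and Apol9b were at 2.43 and 2.46. Apol9b, of the apolipoprotein L family, had 113, 128 and 28.9 tags of H3K4me3 in PD-L1 high, all IFN-gamma treated and untreated cells, and Krtcap3 had 105, 106 and 110.0. Both the level and the differences of a window enter this distance.

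Other genes of nucleic acid sensing were read in the same way. Over 79 genes in 7 lists, 69 were kept for H3K4me3 and 64 for H3K27Ac, and none passed 2-fold in either direction in any of the 3 comparisons, beside the shares of all windows given above. In all IFN-gamma treated over untreated cells, the median was 0.05 for H3K4me3 and 0.04 for H3K27Ac, with 37 of 69 and 36 of 64 above 0. By list, the H3K4me3 median in this comparison was 0.10 over 11 kept of 14 genes of MAVS and the regulators of RIG-I and MDA5, and 0.06 over 11 of 12 shared kinases, scaffolds and transcription factors. It was 0.00 over all 15 genes of cGAMP handling and the STING branch, and 0.16 over all 7 of ZBP1 death signalling. The 10 kept of 11 genes that clear or edit self nucleic acid had a median of -0.05, 11 of 13 other cytosolic sensors 0.06, and 4 of 7 endosomal sensing genes 0.02. Single kept genes of these lists ranged from -0.64 to 0.74. Among genes of ZBP1 death signalling, Tnfaip3, an inhibitor of NF-kB, had the H3K4me3 ratio farthest from 0, at 0.74 (0.55 to 0.93). Samhd1, which degrades nucleotides and limits DNA synthesis by viruses, led the clearance genes, with 1060 tags in PD-L1 high, 1083 in all IFN-gamma treated and 574 in untreated cells. Its ratio was 0.68 (0.53 to 0.83) for H3K4me3 and 0.93 (0.63 to 1.32) for H3K27Ac in all IFN-gamma treated over untreated cells.

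Ifi204, a DNA sensor of the Ifi200 family that acts with STING, led the genes of the cGAS-STING branch. It had 455 tags of H3K4me3 in PD-L1 high, 305 in all IFN-gamma treated and 192 in untreated cells. Its ratio was 0.43 (0.17 to 0.70) in all IFN-gamma treated over untreated and 0.50 (0.29 to 0.72) in PD-L1 high cells over all IFN-gamma treated cells. The family has close paralogs, so reads may be shared. Ratios below 0 in all IFN-gamma treated over untreated cells stood at Nlrx1, a mitochondrial regulator of MAVS, with -0.64 (-1.09 to -0.21), at Aim2, the DNA sensor of an inflammasome, with -0.54 (-0.80 to -0.29), and at Ikbke, a kinase downstream of MAVS, with -0.38 (-0.59 to -0.17). Windows with little H3K4me3 tended lower in general in this comparison. Those averaging 57.6 to 135 tags had a median of -0.48, with quartiles of -0.75 and -0.19. The trend was weaker at higher levels. Medians were -0.09 at 240 to 348 tags and -0.02 at 348 to 442 tags, with lower quartiles of -0.24 and -0.18. Aim2 and Ikbke had narrower intervals than Nlrx1, so their ratios rest on more tags. The part of this level trend in the ratios of Nlrx1, Aim2 and Ikbke was not tested. Myd88, the adaptor of most Toll-like receptors, was at 0.18 (0.06 to 0.30).

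The Polycomb marks were less even over these genes. For H3K27me3, 3 of 44 kept pathway genes were at least 2-fold higher in all IFN-gamma treated over untreated cells and 1 was lower, near the background shares of 3.79% and 4.51%. These genes, named after their values were seen, were Mavs with 57.2 tags in all IFN-gamma treated and 19.8 in untreated cells (1.22, 0.50 to 2.08), Trim25, a ubiquitin ligase of RIG-I, with 26.9 in treated and 8.13 in untreated cells (1.29, 0.35 to 2.88), the adaptor gene Ticam1 with 42.5 in treated and 14.7 in untreated cells (1.19, 0.46 to 2.35), and Trim38 with 32.4 in treated and 62.5 in untreated cells (-1.12, -1.84 to -0.54). In PD-L1 high cells over all IFN-gamma treated cells, 9 of 44 were at least 2-fold lower and none higher, with a median of -0.50, where 12.6% of all kept windows were lower and 1.37% higher. In PD-L1 high cells over untreated cells, 5 of 44 were lower and none higher, where 8.88% and 2.54% of windows were. Windows with much H3K4me3 were lower in general in both comparisons. Of 4 bins, the one with the most had a median of -0.75 over all IFN-gamma treated cells and -0.35 over untreated cells. For H2A119Ub, Irf3 alone of 45 kept genes passed 2-fold in all IFN-gamma treated over untreated cells, at -1.39 (-2.29 to -0.92). Ripk1 alone did so in PD-L1 high cells over all IFN-gamma treated cells, at -1.05 (-2.02 to -0.58). Of all kept windows, 0.894% and 0.517% were at least 2-fold lower in these comparisons. Both use the shallowest library, that of H2A119Ub in all IFN-gamma treated cells.

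**Figure D5:**
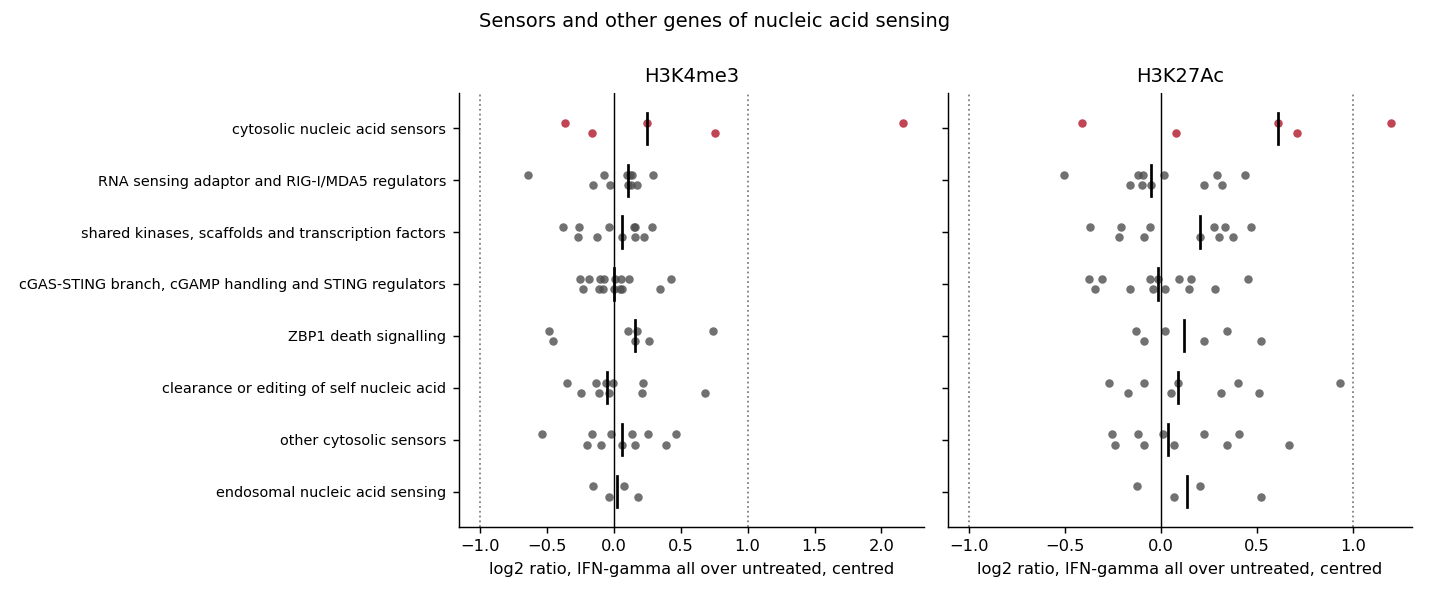
Centred log2 ratios of all IFN-gamma treated over untreated cells for the kept sensor genes (red) and the kept genes of 7 pathway lists (grey), for H3K4me3 and H3K27Ac, with a black bar at each median and dotted lines at 2-fold. Zbp1 at 2.16 for H3K4me3 and Ifih1 at 1.20 for H3K27Ac are the points past the lines.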

How the data were processed

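The authors deposited 1 table of normalised signal, with 1 value per gene window and library. The submitters' processing notes list Bowtie2 2.4.2, MACS2 2.2.7.1, HOMER and mm10, without role or order. What window was read, whether duplicates were removed and how libraries were scaled is not stated there. All value columns were used. Multiplied by 6000, at least 99.99% of the values above 0 of each library lay within 10% of a whole multiple of 1 fitted step, read as 0.5 tags. The pseudocount was the 10th percentile, by mark, of all values above 0, 1.99 tags (H3K4me3), 5.06 (H3K27Ac), 2.03 (H3K27me3) and 8.18 (H2A119Ub). Windows with a mean at or above the median window (57.6, 46.3, 12.8 and 41.1 tags in that order) were kept, and log2 ratios were centred on their median. Level intervals are exact Poisson and ratio intervals Clopper-Pearson on recovered tags, without the pseudocount. Ratios understate differences at low windows. Steps were tested on simulated data. Gene coordinates, neighbours and promoters are from RefSeq, which matched 25207 windows (98.8%) by symbol or synonym.

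Sensor genes and the 7 pathway lists were chosen with earlier results of these data known. Genes named by rule are the members, the nearest gene with a window on either side, the 2 windows most alike over 12 libraries (predicted, RIKEN and small RNA genes skipped), and in each pathway list the genes past 2-fold in H3K4me3 or H3K27Ac or else the 1 with the largest H3K4me3 ratio. Other named genes were picked after their values were seen. With 1 library per mark and state, libraries were compared without a test. Alternatives were no centring, quantile normalization, a pseudocount of 0.5 or 2 times the size, and no level filter. Python 3.11.15, pandas 2.3.3, numpy 2.4.6 and scipy 1.17.1 were used.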

Additional observations from a re-analysis of the deposited data

How the results depend on the processing

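Over 5 alternatives, the calls of Zbp1 in H3K4me3 and of Ifih1 in H3K27Ac kept their direction and stayed past 2-fold. In all IFN-gamma treated over untreated cells, the H3K4me3 ratio of Zbp1 ranged from 2.09 to 2.78 and the H3K27Ac ratio of Ifih1 from 1.07 to 1.51. The H3K27me3 call of Zbp1 in PD-L1 high cells over all IFN-gamma treated cells ended under quantile normalization, at -0.86, while over untreated cells it ranged from -1.98 to -1.45. Cgas H3K27me3 in PD-L1 high over untreated cells ranged from 0.40 to 1.18. Of 72 member ratios, 12 took the other sign under at least 1 alternative, all of them between -0.43 and 0.12 as reported. Member counts that moved were these. Without centring, 2 members were 2-fold higher in H3K4me3 in PD-L1 high over untreated cells, 1 was higher in H3K27me3 in all IFN-gamma treated over untreated cells, and 2 were lower in H3K27me3 in PD-L1 high cells over all IFN-gamma treated cells. Under quantile normalization, 2 were higher in H3K4me3 in all IFN-gamma treated and 2 in PD-L1 high over untreated cells, 2 were higher in H3K27Ac in all IFN-gamma treated over untreated cells, and in H3K27me3 in PD-L1 high cells over all IFN-gamma treated cells 1 was higher and 0 lower. With 0.5 of the pseudocount, 1 was higher in H3K27me3 in PD-L1 high over untreated cells. Without the level filter, 2 were higher in H3K4me3 in PD-L1 high over untreated cells, 1 was lower in H3K27Ac in PD-L1 high cells over all IFN-gamma treated cells and 1 over untreated cells, and in H3K27me3 1 was lower in all IFN-gamma treated over untreated cells, while in PD-L1 high over untreated cells 1 was higher and 2 were lower. That setting lets in members with few tags. The cause of the other moves was not tested. No paired analysis was possible because each mark and state has 1 library. Low counts limit H3K27me3, where 5 of the 6 members had under 60 tags. Depth limits H2A119Ub in all IFN-gamma treated cells, the shallowest library.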
